A study of Mus musculus with 26 samples.

Results

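The 44 genes described here encode enzymes that add methyl groups to lysines of histones or remove them, and proteins that read those marks. They were chosen as a family by function and matched by Entrez gene ID in the deposited tables. All 44 of 44 were found among 19638 genes listed in at least 1 library, had reads in all 26 libraries and passed the filter on low counts in both fits. By role they comprise 8 methyltransferases of lysine 4 of histone H3 (H3K4), 7 of H3K9, 4 core subunits of Polycomb repressive complex 2 (PRC2), and 6 methyltransferases of H3K36, H3K79 or other sites. The others are 2 demethylases of the LSD1 type, 12 of the Jumonji (JmjC) type, and 5 reader proteins, among them the 3 HP1 proteins.

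Methyltransferases take the methyl group from S-adenosylmethionine, while JmjC demethylases use 2-oxoglutarate and iron, and LSD1-type demethylases use flavin. H3K4 methylation marks promoters and enhancers, H3K9 methylation is bound by HP1 in heterochromatin, and H3K27 methylation by PRC2 holds developmental genes silent. HDAC3, a histone deacetylase that works inside the NCoR and SMRT corepressor complexes, restrains lipid synthesis genes in hepatocytes.

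RNA of mouse liver tissue was sequenced from 8 groups, all labelled C57BL/6. Young livers of 2 to 3 months with the genotype Alb-Cre:Hdac3-/- form a time course after sPH, which the labels write as successive PH. It has 3 libraries at 0d, 4 at 7d, 4 at 21d and 3 at 50d, where d stands for days. Young wild type livers (WT, 3 libraries, 2 to 3 months) were labelled wild type, and the sources used here do not say whether they had sPH. Older tissue came from liver tumors of Fah-/- recipient mice (recipient tumors, 3 libraries, 12 months), tumors of Hdac3-/- livers (3, 10 months) and tissue adjacent to such tumors without tumor (adjacent, 3, 10 months, Alb-Cre:Hdac3-/- as well). Fah is an enzyme of tyrosine breakdown, and the sources used here do not say what the recipients received. Alb-Cre acts under the albumin promoter, so by design the deletion is limited to hepatocytes and cells with that promoter active, while the other liver cells keep the gene.

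Library totals ran from 8602526 to 11094627 counts. Hepatocyte markers were present in all 26 libraries, with a summed level of 8 markers of 21905 to 168954 CPM (a library's counts scaled to the same total). Hdac3 itself, the targeted gene, was not lower: it stood at 45.8 ± 3.39 CPM in 0d livers and 33.9 ± 2.51 CPM in WT livers (SD, n = 3 each, log2 difference 0.44, edgeR adjusted p = 0.0316). It was at 62.7 ± 5.79 CPM in Hdac3-/- tumors and 59.7 ± 6.48 CPM in adjacent tissue (log2 difference 0.07, adjusted p = 0.875). With 1 count per gene, loss of some exons cannot be checked, and the genotype rests on the labels. Y-linked transcripts summed to 37.5 to 81.4 CPM in every library of the later days (7d, 21d, 50d) and to at most 0.307 CPM in 0d and WT libraries. A pair of genes that mark 1 beta-globin haplotype, Hbb-bs and Hbb-bt, took 0.0 to 2.8% of the adult beta-globin count at the later days except for 48.1% in 7d replicate 4, against 52.7, 99.6 and 53.9% in 0d libraries and at least 99.6% in WT libraries. In the older libraries the pair took 0.0 to 1.2%. The haplotype thus differed between libraries with the same strain label. A difference between a later day and 0d cannot be told apart from one between livers with and without Y-linked transcripts, or from one in that haplotype. The comparison of 0d with WT is free of the Y-linked difference but not of the haplotype difference. In whole tissue, fewer cells of a type and less RNA per cell cannot be told apart.

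Levels below are CPM after TMM scaling, differences are log2 fold changes ± SE with the first-named group over the second, and tests are edgeR's quasi-likelihood F-test with Benjamini-Hochberg adjustment over all genes tested, at an adjusted p under 0.05. "Rose" and "fell" are used for what passed that test. FPKM, the deposited value per kilobase of transcript, is used where the levels of different genes are set side by side.

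Of the 44 members 27 passed in none of the 9 comparisons and 17 passed in at least 1. That count was not made over all genes, of which single comparisons called 0 to 37.3%, so it cannot be read as high or low. Zmynd8, a chromatin reader, passed in 6 comparisons, more than any other member. Among all members the largest differences also belonged to it, in the tumors. The heat map of member levels shows this row apart from the others.

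**Figure D1:**
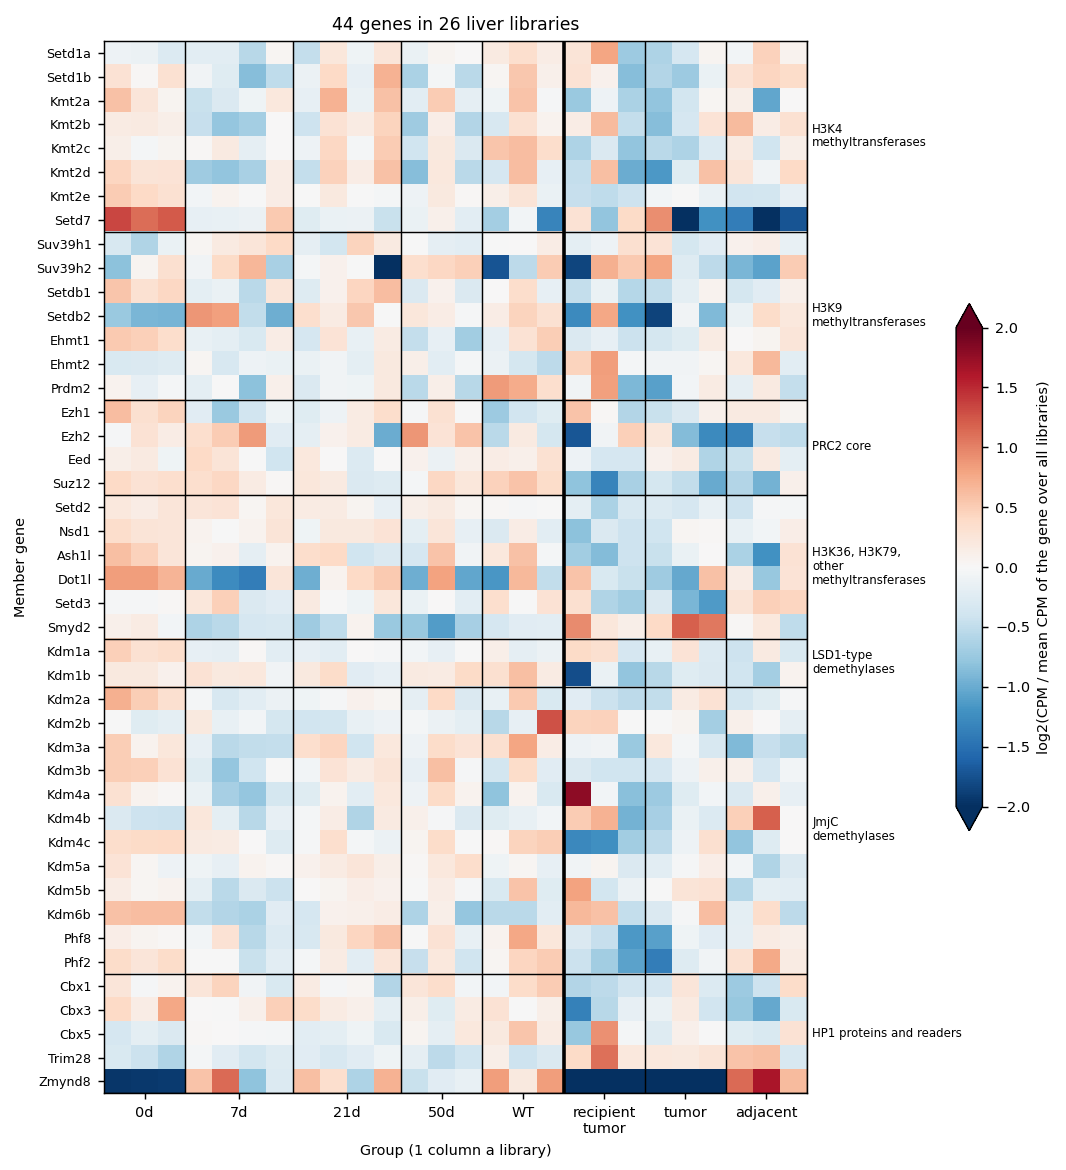
Heat map of the 44 members (rows, by role) in the 26 libraries (columns, by group); colour gives the log2 ratio of the level in CPM to the member's mean CPM over all libraries, capped at 2 in each direction. Zmynd8, in the bottom row, is low in the 0d libraries (97.2 to 99.3 CPM) and in both kinds of tumor (55.8 to 80.6 CPM), and lies at 214 to 1168 CPM elsewhere.

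The start regions of the 3 members with the largest called differences between 0d and WT livers are shown next, since they are the annotated starts of these genes. They are RefSeq promoters of GRCm38.p6, from 250 bases before to 50 bases after a start, all on the minus strand, read 5′ to 3′. Zmynd8 has several annotated starts, and those at chr2:165882229-165882528 (upstream) and chr2:165858124-165858423 (downstream) match the starts of full-length transcripts in the GENCODE annotation of the same build. The shortest of its listed transcripts, described further below, starts at chr2:165875777, which lies in none of the Zmynd8 promoters searched. Setd7 has its start in chr3:51560774-51561073 and Setdb2 in chr14:59440831-59441130. Capitals mark CG pairs, the sites of DNA methylation and of CXXC-domain proteins such as Cxxc1 and Kdm2b, and in Setdb2 also the CCAAT box on either strand.
Zmynd8 upstream: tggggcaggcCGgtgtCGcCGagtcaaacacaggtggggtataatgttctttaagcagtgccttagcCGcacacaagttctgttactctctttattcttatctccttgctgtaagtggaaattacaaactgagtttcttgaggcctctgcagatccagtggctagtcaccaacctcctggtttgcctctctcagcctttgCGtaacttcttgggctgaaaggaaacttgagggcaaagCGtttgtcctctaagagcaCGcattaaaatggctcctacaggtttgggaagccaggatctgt
Zmynd8 downstream: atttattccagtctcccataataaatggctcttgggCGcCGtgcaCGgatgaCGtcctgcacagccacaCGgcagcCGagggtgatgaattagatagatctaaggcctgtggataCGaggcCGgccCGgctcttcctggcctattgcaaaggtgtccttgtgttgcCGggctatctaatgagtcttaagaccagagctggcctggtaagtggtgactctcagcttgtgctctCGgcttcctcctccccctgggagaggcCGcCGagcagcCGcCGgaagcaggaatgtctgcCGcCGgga
Setd7: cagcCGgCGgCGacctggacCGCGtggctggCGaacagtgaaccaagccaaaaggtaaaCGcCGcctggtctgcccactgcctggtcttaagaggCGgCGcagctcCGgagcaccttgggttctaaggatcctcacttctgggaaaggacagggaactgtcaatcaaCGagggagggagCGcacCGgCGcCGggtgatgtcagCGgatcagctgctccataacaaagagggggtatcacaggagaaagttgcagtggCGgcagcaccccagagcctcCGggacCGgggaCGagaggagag
Setdb2: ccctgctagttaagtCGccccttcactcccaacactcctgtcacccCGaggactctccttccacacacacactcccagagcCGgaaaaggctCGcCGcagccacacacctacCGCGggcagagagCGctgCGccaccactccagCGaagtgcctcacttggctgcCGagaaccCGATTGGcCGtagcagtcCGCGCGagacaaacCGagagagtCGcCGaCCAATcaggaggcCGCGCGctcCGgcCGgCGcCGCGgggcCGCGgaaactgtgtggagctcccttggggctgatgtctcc

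The upstream Zmynd8 region holds 7 CG pairs and the downstream one 17, while Setd7 has 21 and Setdb2 29. Over all 32851 promoters in the table the median was 7 and over the 48 promoters of the 33 members found there it was 28.0. Median GC content was 64.2% in the member promoters, against 52.7% in all.

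A set of 6 motifs was searched on both strands. The GC box GGGCGG, bound by Sp1-type factors, occurred in 31 of the 48 member promoters (64.6%), against 35.7% of all promoters. TATAAA occurred in 0 of the 48, against 13.6% of all. CCAAT, the motif of NF-Y, occurred in 16 (33.3%), against 37.4% of all, and Setdb2 holds one such box on each strand. The E-box CACGTG, the nuclear receptor half-site AGGTCA and the cAMP element TGACGTCA occurred in 4, 4 and 2 of the 48, against 7.2, 16.3 and 1.8% of all. None of the 6 was found in the 2 Zmynd8 regions or the Setd7 region printed, while of the other Zmynd8 promoters in the table one holds AGGTCA and one CCAAT. These matches describe letters in a window and are no test of binding. Members with no entry in the table were Setd1b, Kmt2b, Kmt2e, Prdm2, Nsd1, Ash1l, Kdm2a, Kdm3b, Kdm4b, Kdm5a and Kdm6b.

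Per kilobase of transcript, Zmynd8 was the most abundant member in 0d, 7d, 21d, 50d, WT and adjacent tissue. Its mean FPKM was 33.7, 163, 166 and 111 at 0d, 7d, 21d and 50d and 198 in WT livers. In 0d livers it stood only 1.02 times above the next member, Setd3, a methyltransferase of actin histidine as well as histones (33.7 against 32.9 FPKM), so the order of those neighbours is within the spread. In WT livers it stood 6.38 times above Setd3, and in adjacent tissue 8.12 times (271 against 33.4 FPKM).
In both kinds of tumor other members led. Recipient tumors had Ehmt2 (34.5 FPKM), an H3K9 methyltransferase also called G9a, and Trim28 (34.4 FPKM), a corepressor that recruits Setdb1, at the top. Hdac3-/- tumors had Smyd2 (26.5 FPKM), a methyltransferase of H3K36 and p53, and Trim28 (25.9 FPKM) there. Zmynd8 was at 20.6 ± 4.24 FPKM in recipient tumors, 20.1 ± 2.38 FPKM in Hdac3-/- tumors and 271 ± 69.1 FPKM in adjacent tissue (SD, n = 3 each). Suv39h2, an H3K9 methyltransferase known for its role in germ cells, was lowest in every group, with means of 0.127 to 0.237 FPKM. The member in the middle of the order had 3.40 to 5.51 FPKM, depending on the group. As a share of the summed FPKM of the 44 members, Zmynd8 made up 9.23 to 10.3% in 0d libraries, 26.8 to 56.3% at 7d, 26.4 to 47.2% at 21d, 30.6 to 35.6% at 50d and 36.7 to 49.6% in WT. The same share was 6.09 to 8.30% in recipient tumors, 7.43 to 8.72% in Hdac3-/- tumors and 46.8 to 60.6% in adjacent tissue.

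The comparison of 0d with WT asks how livers labelled Hdac3-/- differ from wild type at the start of the time course. Here 4 members rose and 4 fell of 44, or 18.2%, against 37.3% of all 13617 genes tested (18.3% higher and 19.0% lower). The share among the members lies under that background. The median log2 difference over the members was 0.08, against 0.00 over all genes. Setd7, Kdm6b, Ezh1 and Kdm1a rose, and Zmynd8, Cbx5, Setdb2 and Prdm2 fell.

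Zmynd8 (gene ID 228880, chromosome 2, 165784152 to 165898981, GRCm38), which binds acetylated and methylated histone tails through bromodomain, PHD and PWWP modules, had 97.2, 98.2 and 99.3 CPM in 0d livers, against 673, 432 and 669.7 CPM in WT livers. The 0d values lie within a few CPM of each other, and the groups do not overlap. The log2 difference was -2.59 ± 0.42 (95% interval -3.47 to -1.70, adjusted p = 0.000334), and it stayed between -2.77 and -2.49 with the call kept when any 1 of the 6 libraries was left out. No exon of another annotated gene overlaps those of Zmynd8.

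Setd7 (gene ID 73251, chromosome 3, 51515318 to 51560823), a monomethyltransferase of H3K4 and of several non-histone proteins, had 28.6, 24.5 and 26.6 CPM in 0d livers, against 7.04, 10.9 and 4.54 CPM in WT livers. Every 0d library was above every WT library, with a log2 difference of 1.83 ± 0.26 (1.29 to 2.37, adjusted p = 0.000125). Kdm6b (gene ID 216850, chromosome 11, 69398508 to 69420367), the H3K27 demethylase JMJD3, had 60.1, 61.2 and 61.6 CPM in 0d livers, against 27.6, 27.4 and 34.4 CPM in WT livers. These groups did not overlap either (1.04 ± 0.20, adjusted p = 0.00126). Ezh1 (gene ID 14055, chromosome 11, 101191115 to 101226463), the PRC2 methyltransferase of H3K27 that predominates in non-dividing cells, had 29.0, 23.6 and 25.7 CPM in 0d livers, against 11.4, 14.4 and 16.0 CPM in WT livers (0.91 ± 0.20, adjusted p = 0.00242). An enzyme that adds the H3K27 mark and one that removes it were thus both higher. Exons of Setd7 and Kdm6b share 131 and 286 bases with annotated neighbours, and the sources used here do not say whether counting used strand.

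Ezh2, the PRC2 methyltransferase of dividing cells, had 3.73, 4.61 and 4.19 CPM in 0d livers, against 2.61, 4.26 and 2.95 CPM in WT livers, and the groups overlapped (0.35 ± 0.32, adjusted p = 0.402). The other PRC2 subunits Eed and Suz12 did not pass. The ratio of Ezh1 to Ezh2 in FPKM had a geometric mean of 3.92 in 0d livers and 2.70 in WT livers, which a 2-sided exact permutation test put at p = 0.200, where 0.1 is the smallest p that 3 against 3 allows.

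Setdb2 (gene ID 239122, chromosome 14, 59402009 to 59440880), an H3K9 methyltransferase, had 3.90, 3.48 and 3.42 CPM in 0d livers, against 7.27, 8.94 and 8.12 CPM in WT livers. No value of the groups overlapped (-1.16 ± 0.37, adjusted p = 0.0212), although the call was lost without 0d replicate 2, 0d replicate 3 or WT replicate 2, with log2 differences of -1.24 to -1.09 over the libraries left out. Its paralog Setdb1, which Trim28 brings to repeat sequences, had 41.6, 35.1 and 38.0 CPM in 0d livers, against 28.7, 36.3 and 25.4 CPM in WT livers, with overlap (0.35 ± 0.22, adjusted p = 0.235). The ratio of Setdb1 to Setdb2 in FPKM was 6.59 to 7.21 in 0d libraries and 2.04 to 2.63 in WT libraries. That difference in the ratio gave an exact permutation p of 0.1, the smallest possible. Prdm2 (gene ID 110593), also called RIZ, fell to 44.6, 37.9 and 41.4 CPM in 0d livers, against 76.3, 70.7 and 53.6 CPM in WT livers (-0.69 ± 0.23, adjusted p = 0.0269). Its call was lost without 0d replicate 2, 0d replicate 3, WT replicate 1 or WT replicate 2 (-0.83 to -0.59) and when counts were scaled by library totals. Suv39h1, which places H3K9 trimethylation at pericentric repeats, had 7.21, 5.91 and 8.21 CPM in 0d livers, against 8.97, 9.04 and 10.0 CPM in WT livers (-0.39 ± 0.20, adjusted p = 0.14).

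Among the HP1 proteins, Cbx5 (HP1 alpha; gene ID 12419, chromosome 15, 103191546 to 103239904) fell to 14.7, 16.2 and 15.2 CPM in 0d livers, against 21.2, 27.1 and 20.8 CPM in WT livers. The groups did not overlap (-0.58 ± 0.14, adjusted p = 0.00455), and the call was lost when counts were scaled by library totals. Cbx1 (HP1 beta) had 11.7, 9.82 and 10.4 CPM in 0d livers, against 9.54, 12.8 and 14.2 CPM in WT livers (-0.19 ± 0.22, adjusted p = 0.528). Cbx3 (HP1 gamma) had 36.8, 30.9 and 47.9 CPM in 0d livers, against 34.1, 27.7 and 30.3 CPM in WT livers (0.33 ± 0.19, adjusted p = 0.181). Cbx1 and Cbx3 did not pass, and both have near-identical copies in the genome, so their counts are uncertain.
Kdm1a (LSD1, gene ID 99982), which removes H3K4 mono- and dimethylation in the CoREST complex, rose to 19.5, 17.4 and 17.9 CPM in 0d livers, against 15.2, 12.4 and 13.0 CPM in WT livers (0.44 ± 0.13, adjusted p = 0.0174). Its call was lost without 0d replicate 1, WT replicate 2 or WT replicate 3 (0.37 to 0.53).

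Of the 8 H3K4 methyltransferases only Setd7 passed in this comparison, and none of the 6 methyltransferases of H3K36, H3K79 and other sites passed. Dot1l, the methyltransferase of H3K79, had 33.5, 33.5 and 30.3 CPM in 0d livers, against 8.40, 29.6 and 13.4 CPM in WT livers. The groups did not overlap, but WT replicate 2 lay close to the 0d libraries (0.92 ± 0.55, adjusted p = 0.194). One library decided the WT mean of Kdm2b, an H3K36 demethylase of CpG islands, in the same way, with 10.0, 8.43 and 8.72 CPM in 0d livers, against 6.81, 8.94 and 24.1 CPM in WT livers.

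**Figure D2:**
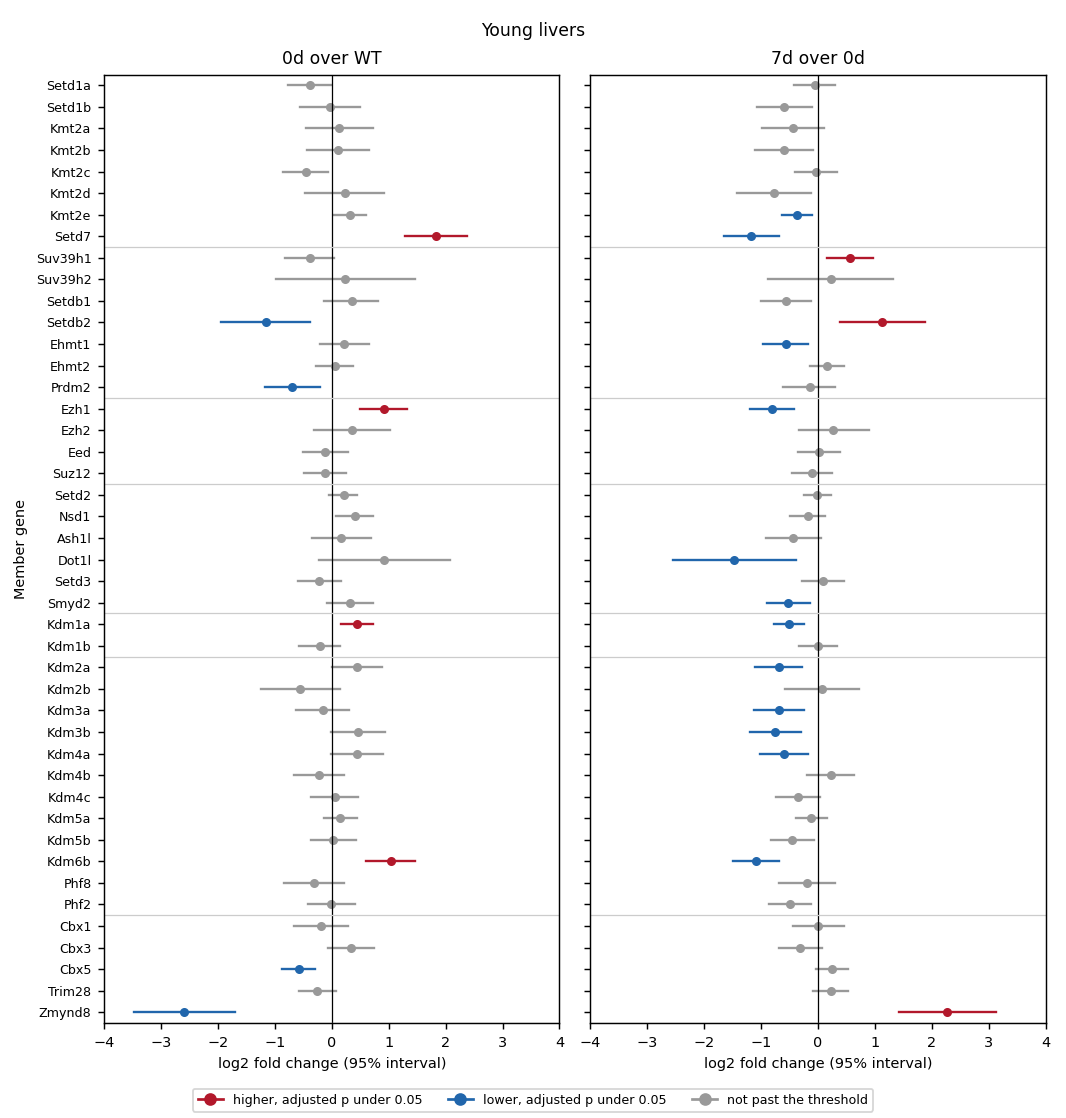
Log2 fold changes with 95% intervals (horizontal axis) of the 44 members (vertical axis, by role) for 0d over WT (left) and 7d over 0d (right), coloured by direction where the edgeR adjusted p was under 0.05. Zmynd8 lies at -2.59 on the left and 2.27 on the right, and Setd7 at 1.83 and -1.18.

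Markers of several cell types passed in this comparison, in which 18.3% of all genes rose and 19.0% fell. Of 8 hepatocyte markers 7 fell (median log2 difference -1.62), and their summed level was 36343 to 45578 CPM in 0d libraries and 151167 to 168954 CPM in WT libraries. All 5 biliary markers tested rose (median 3.68), 4 of 7 stellate and matrix markers rose, and 4 of 7 macrophage markers rose and 1 fell. Of 16 cell cycle genes 4 rose and 0 fell (25.0%), against 37.3% of all genes called in either direction. Mki67, the proliferation marker, had 15.7 ± 1.13 CPM in 0d livers and 4.28 ± 2.43 CPM in WT livers (1.87, adjusted p = 0.0255). The part of these cell types and of proliferation in the differences of the members was not tested.

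Partners and substrate enzymes are read against the 37.3% of all genes called between 0d and WT. The share called was 25.0% for COMPASS partners, 23.5% for PRC1, 12.5% for CoREST partners and 31.2% for DNA methylation genes, all under that background. It was 42.9% for PRC2 accessory subunits and for 2-oxoglutarate enzymes, 47.6% for other histone lysine methylation enzymes, 50.0% for the HDAC3 complex and 60.0% for the methyl donor cycle. Of 12 partners of the COMPASS and MLL complexes 3 fell and 0 rose, among them Cxxc1 (19.9 ± 0.362 CPM in 0d livers and 33.9 ± 4.77 CPM in WT livers), which brings Setd1a and Setd1b to CpG islands, and Dpy30 and Paxip1 (-0.58 ± 0.20 and -0.48 ± 0.17). Of 10 genes of the methyl donor cycle 6 fell and 0 rose. Pemt, which makes phosphatidylcholine by methylation, had 79.6 ± 17 CPM in 0d livers and 233 ± 40.0 CPM in WT livers, and Ahcy, which clears S-adenosylhomocysteine, 283 ± 30.7 CPM in 0d livers and 1189 ± 251 CPM in WT livers. Bhmt, which remethylates homocysteine, had 1039 ± 36 CPM in 0d livers and 4134 ± 1869 CPM in WT livers. These are abundant hepatocyte enzymes. Of 14 enzymes around 2-oxoglutarate 6 fell and 0 rose, among them the succinate dehydrogenase subunits Sdhb (-1.04 ± 0.19) and Sdhc (-0.70 ± 0.16) and Idh3a (-0.67 ± 0.17).
Of 6 genes of the HDAC3 corepressor complex 3 rose, with Tbl1x at 50.4 ± 7.10 CPM in 0d livers and 10.3 ± 6.45 CPM in WT livers, Tbl1xr1 (0.67 ± 0.20) and Hdac3. Of 21 other histone lysine methylation enzymes tested 6 rose and 4 fell. Kmt5a, the H4K20 monomethyltransferase, had 96.2 ± 5.10 CPM in 0d livers and 32.8 ± 8.87 CPM in WT livers (1.56 ± 0.20, adjusted p = 7.85e-05). Smyd1 fell, with 0.424, 0 and 0 CPM in 0d livers, against 4.09, 2.29 and 5.28 CPM in WT livers, and Nsd2, an H3K36 methyltransferase, rose (0.67 ± 0.16). Among PRC1 subunits 3 of 17 rose (Pcgf2 at 1.05 ± 0.22, Cbx6 at 1.69 ± 0.47 and Pcgf3 at 0.88 ± 0.27) and 1 fell. Of 7 PRC2 accessory subunits Aebp2 rose (0.49 ± 0.16) and Rbbp4 and Phf1 fell (-0.76 ± 0.23 and -0.56 ± 0.21), and of 8 CoREST partners tested Gse1 rose (1.67 ± 0.28). Of 16 genes of DNA methylation and heterochromatin 4 rose and 1 fell, with Uhrf2 (0.73 ± 0.13), Dnmt1 (1.14 ± 0.33) and Dnmt3a (0.74 ± 0.24) among the rises.

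The later days were set against 0d to follow the same genotype over time. At 7d 3 members rose and 12 fell, or 34.1% of 44, against 26.6% of all genes tested (14.7% higher and 11.9% lower). At 21d 2 rose and 5 fell, or 15.9%, against 31.6% (17.6% higher and 14.0% lower), and at 50d 1 rose and 5 fell, or 13.6%, against 25.8% (14.4% higher and 11.4% lower). Median log2 differences of the members were -0.25, -0.12 and -0.16 at 7d, 21d and 50d, against 0.04, 0.01 and 0.01 over all genes. These comparisons share the 0d libraries with each other and with the comparison to WT, so a 0d level that is high or low appears in all of them.

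Zmynd8 had 97.2, 98.2 and 99.3 CPM at 0d, 555, 823, 214 and 312 CPM at 7d, 572, 475, 245 and 610.1 CPM at 21d, and 276, 319.9 and 338 CPM at 50d. Each library of a later day was above each 0d library. The log2 differences from 0d were 2.27 ± 0.40 at 7d (adjusted p = 0.00128), 2.27 ± 0.40 at 21d (adjusted p = 0.000973) and 1.66 ± 0.41 at 50d (adjusted p = 0.00812), and all 3 calls held with any 1 library left out. Within 7d the libraries spread widely, and their summed hepatocyte markers were 81857, 128856, 29922 and 35660 CPM, in the same order of libraries. The sum was 36343 to 45578 CPM in 0d libraries. The part of hepatocyte content in the Zmynd8 level was not tested.

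Setd7 had 28.6, 24.5 and 26.6 CPM at 0d, 10.1, 10.2, 10.4 and 16.3 CPM at 7d, 9.60, 10.3, 10.4 and 8.30 CPM at 21d, and 10.3, 12.1 and 9.76 CPM at 50d. It fell at each later day, by 1.18 ± 0.23, 1.47 ± 0.23 and 1.31 ± 0.25 on the log2 scale (adjusted p = 0.0023, 0.00052 and 0.00183), with no overlap with 0d. Kdm6b had 60.1, 61.2 and 61.6 CPM at 0d, 28.3, 26.6, 25.8 and 34.2 CPM at 7d, 31.6, 42.4, 43.1 and 44.1 CPM at 21d, and 26.2, 43.2 and 23.4 CPM at 50d. It fell as well, by 1.09 ± 0.19, 0.60 ± 0.19 and 0.98 ± 0.20 (adjusted p = 0.00112, 0.0229 and 0.00306). At 21d that call was lost without 21d replicate 1 or any 1 of the 0d libraries (-0.65 to -0.50).

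Kdm1a had 19.5, 17.4 and 17.9 CPM at 0d, 12.6, 12.4, 14.3 and 12.1 CPM at 7d, 12.5, 12.1, 14.2 and 13.9 CPM at 21d, and 13.5, 12.6 and 14.0 CPM at 50d. The values of the later days are close together, and all lie under the 0d values, with falls of 0.51 ± 0.12, 0.48 ± 0.12 and 0.45 ± 0.13 (adjusted p = 0.00845, 0.00944 and 0.0212). The call was lost at 7d without 0d replicate 1 (-0.57 to -0.44) and at 50d without 0d replicate 1 or 3 or 50d replicate 1 or 2 (-0.48 to -0.40). Setd7, Kdm6b, Kdm1a, Zmynd8 and Smyd2 are the members that passed at every later day.

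Ezh1 had 29.0, 23.6 and 25.7 CPM at 0d, 16.1, 11.3, 14.4 and 17.7 CPM at 7d, 15.9, 17.6, 21.1 and 24.1 CPM at 21d, and 18.6, 23.2 and 18.8 CPM at 50d. It fell at 7d (-0.81 ± 0.18, adjusted p = 0.00518), while the 21d and 50d levels, in between, did not pass. Ezh2 stayed low, with 3.73, 4.61 and 4.19 CPM at 0d, 4.78, 5.39, 6.83 and 3.24 CPM at 7d, 3.34, 4, 4.24 and 1.90 CPM at 21d, and 6.99, 4.58 and 5.6 CPM at 50d. No comparison of Ezh2 passed. The ratio of Ezh1 to Ezh2 had geometric means of 1.88 at 7d and 3.92 at 0d (exact permutation p = 0.114, smallest possible 0.0571).

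Setdb2 had 3.90, 3.48 and 3.42 CPM at 0d, 12.1, 11.6, 4.65 and 3.34 CPM at 7d, 8.24, 7.29, 9.55 and 6.52 CPM at 21d, and 7.65, 7.27 and 6.43 CPM at 50d. At 7d it passed (1.13 ± 0.35, adjusted p = 0.0269) although replicate 4 lay under every 0d library, and at 21d it passed with no overlap (1.13 ± 0.35, adjusted p = 0.0229). The 7d call was lost without any 1 of the 0d libraries or 7d replicate 1 or 2 (0.84 to 1.40), and the 21d call without any 1 of the 0d libraries (1.02 to 1.21). At 7d the 2 libraries with high Setdb2 were those with the higher hepatocyte marker sums. The part of hepatocyte content in the Setdb2 level was not tested. Setdb1 had 41.6, 35.1 and 38.0 CPM at 0d, 24.8, 25.8, 19.6 and 33.7 CPM at 7d, 23.7, 30.1, 38.3 and 43.6 CPM at 21d, and 23.2, 30.1 and 23.2 CPM at 50d. It did not pass at 7d (-0.56 ± 0.21, adjusted p = 0.0576). The ratio of Setdb1 to Setdb2 had geometric means of 2.43 at 7d and 6.90 at 0d (exact permutation p = 0.0571, the smallest possible), with 6.56 in 7d replicate 4.

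**Figure D3:**
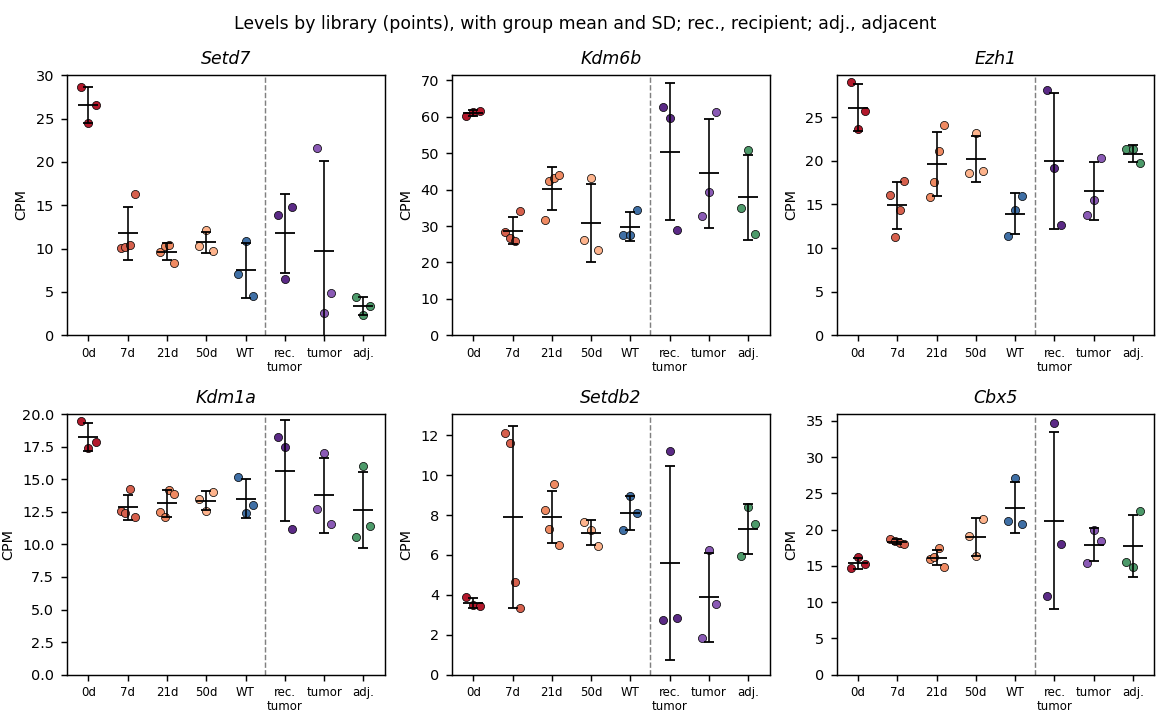
Levels of 6 members in CPM (vertical axes) in each library by group (horizontal axes), with points for libraries and bars for mean and SD; the lower bar of Setd7 in the Hdac3-/- tumors reaches below 0. In the young livers Setd7 and Kdm6b are highest at 0d, at 24.5 to 28.6 and 60.1 to 61.6 CPM.

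Further falls at 7d included 4 demethylases. Kdm2a, an H3K36 demethylase, had 53.9, 44, 47.7 and 51.0 CPM at 7d, against 90.0, 77.7 and 68.8 CPM at 0d (-0.69 ± 0.19, adjusted p = 0.0169). Together with Kdm6b, 5 of the 12 JmjC demethylases (41.7%, against 11.9% of all genes) fell at 7d and 0 rose, the others being Kdm3a and Kdm3b (-0.69 ± 0.21 and -0.75 ± 0.21), which demethylate H3K9, and Kdm4a (-0.59 ± 0.20), which acts on H3K9 and H3K36. Kdm3b shares 3468 exonic bases with an annotated neighbour, so its count is uncertain. The calls of Kdm2a and Kdm3b were lost without 0d replicate 1 or 2 (-0.75 to -0.56 and -0.86 to -0.63) and that of Kdm3a without 0d replicate 1 or 3 or 7d replicate 2 (-0.78 to -0.55). The call of Kdm4a was lost without any 1 of the 0d libraries or 7d replicate 2 or 3 (-0.72 to -0.49).

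Dot1l had 9.37, 7.84, 7.22 and 22.3 CPM at 7d, against 33.5, 33.5 and 30.3 CPM at 0d (-1.47 ± 0.51, adjusted p = 0.0429). In all, 3 of the 7d libraries were far below 0d and replicate 4 was between them. Kmt2e, an MLL family member that binds H3K4 methylation, had 46.7, 51.2, 48.3 and 54.2 CPM at 7d and 48.2, 55.8, 48.4 and 47.4 CPM at 21d, against 69.0, 64.3 and 60.4 CPM at 0d. It passed at both days (-0.37 ± 0.12 each, adjusted p = 0.0389 and 0.0322). Its exons share 972 bases with Srpk2. Ehmt1, the partner of G9a, had 16.0, 15.6, 14.4 and 19.8 CPM at 7d and 12.8, 15.9 and 11 CPM at 50d, against 25.5, 24.7 and 22.6 CPM at 0d. It fell at 7d (-0.56 ± 0.19, adjusted p = 0.0352) and at 50d (-0.87 ± 0.20, adjusted p = 0.00597), the 50d call holding with any 1 library left out.
Smyd2 had 14.8, 15.6, 18 and 18.1 CPM at 7d, 13.8, 16.0, 23.8 and 13.6 CPM at 21d, and 13.4, 10.4 and 14.3 CPM at 50d, against 24.2, 25.3 and 21.8 CPM at 0d. It fell by 0.52 ± 0.18, 0.50 ± 0.18 and 0.91 ± 0.20 (adjusted p = 0.0436, 0.0431 and 0.00397), with an overlap at 21d through replicate 3. Its exons share 814 bases with a neighbour. Suv39h1, which is X-linked, rose at 7d to 9.26, 10.2, 10.7 and 11.9 CPM, against 7.21, 5.91 and 8.21 CPM at 0d (0.56 ± 0.19, adjusted p = 0.0394). It had 7.93, 6.99, 12.3 and 10.2 CPM at 21d and 8.97, 7.96 and 7.78 CPM at 50d, where it did not pass.

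Most of these calls were lost when 1 library was left out, often whichever of several it was, while the differences kept their direction. Those of Ehmt1, Kmt2e and Dot1l were lost without any 1 of the 0d libraries or 7d replicate 1, 2 or 3 (-0.64 to -0.51, -0.39 to -0.30 and -1.98 to -1.29). That of Smyd2 was lost without any 1 of the 0d libraries or 7d replicate 1, 2 or 4 (-0.56 to -0.44), and that of Suv39h1 without 0d replicate 1 or 2 or 7d replicate 2, 3 or 4 (0.47 to 0.70). At 21d the call of Kmt2e was lost without 0d replicate 1 or 2 or 21d replicate 1 or 4 (-0.43 to -0.33). The 21d call of Smyd2 was lost without any 1 of the 0d libraries or 21d replicate 1, 2 or 4 (-0.72 to -0.42). Of the 15 calls at 7d, 4 held without any 1 library, those of Setd7, Ezh1, Kdm6b and Zmynd8.

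None of the HP1 proteins passed at a later day. Cbx5 had 14.7, 16.2 and 15.2 CPM at 0d, 18.7, 18.5, 18.1 and 18 CPM at 7d, 16.0, 16.2, 17.5 and 14.9 CPM at 21d, and 19.1, 16.3 and 21.5 CPM at 50d. Cbx1 had 11.7, 9.82 and 10.4 CPM at 0d, 11.8, 13.6, 9.50 and 8.02 CPM at 7d, 11.1, 9.79, 10.2 and 6.64 CPM at 21d, and 11.7, 12.7 and 9.54 CPM at 50d. For Cbx3 the values were 36.8, 30.9 and 47.9 CPM at 0d, 28.1, 27.9, 29.8 and 38.9 CPM at 7d, 36.1, 31.3, 29.9 and 24.3 CPM at 21d, and 30.4, 23.7 and 31.3 CPM at 50d. All 3 overlap 0d on at least 1 later day.

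Among the partners, 4 of the 10 methyl donor cycle genes rose at each of 7d, 21d and 50d and 0 fell, against 26.6, 31.6 and 25.8% of all genes called in either direction. Ahcy had 872 ± 352 CPM at 7d, 847 ± 144 CPM at 21d and 654 ± 22.7 CPM at 50d (SD, n = 4, 4 and 3), against 283 ± 30.7 CPM at 0d. Nnmt, which methylates nicotinamide and so consumes S-adenosylmethionine, had 134 ± 49.3 CPM at 7d, 103 ± 34.1 CPM at 21d and 106 ± 16.5 CPM at 50d, against 9 ± 2.60 CPM at 0d. Pemt had 160.4 ± 9.55 CPM at 7d, 181 ± 32.6 CPM at 21d and 173 ± 22.1 CPM at 50d, against 79.6 ± 17 CPM at 0d. Hepatocyte markers rose in part at the same days, 3 of 8 at 7d, 4 of 8 at 21d and 3 of 8 at 50d, and neutrophil markers rose at 7d (6 of 6 tested). Stellate and matrix markers fell in part at 7d (3 of 7) and 21d (4 of 7), and biliary markers at 7d (1 of 5) and 21d (3 of 5). Of 3 erythroid markers 2 rose at each later day, and the third fell at 7d and 21d. Their part in the differences was not tested.
At 7d, 21d and 50d the share called among other histone lysine methylation enzymes was 42.9, 47.6 and 42.9%. Over all genes it was 26.6, 31.6 and 25.8%. COMPASS partners had 16.7, 25.0 and 25.0% and the HDAC3 complex 16.7, 33.3 and 50.0%. Kmt5a fell at 7d, 21d and 50d (-0.83 ± 0.18, -1.20 ± 0.18 and -1.09 ± 0.20). Kdm6a, the X-linked H3K27 demethylase, fell at 7d, 21d and 50d (-1.45 ± 0.22, -1.66 ± 0.22 and -1.19 ± 0.24), and Kdm5c, also X-linked, fell at the same days (-0.94 ± 0.14, -0.79 ± 0.14 and -0.72 ± 0.15). Both escape X inactivation, and the later libraries are those with Y-linked transcripts. Day, Y-linked transcripts and the beta-globin haplotype cannot be told apart in these falls, and their parts were not tested. Smyd1 rose to 3.61 ± 2.06 CPM at 7d, 4.42 ± 1.82 CPM at 21d and 6.09 ± 0.486 CPM at 50d, against the 0d levels given above, of which 2 are 0. Cxxc1 rose at the same days (0.53 ± 0.16, 0.69 ± 0.16 and 0.79 ± 0.17), Dpy30 at 21d and 50d (0.83 ± 0.19 and 0.65 ± 0.20) and Ash2l at 21d (0.47 ± 0.12), while Hcfc1 fell at 7d (-0.80 ± 0.21) and Wdr82 at 50d (-0.37 ± 0.13). Tbl1x fell at 7d, 21d and 50d (-2.54 ± 0.50, -2.46 ± 0.50 and -1.88 ± 0.54), Tbl1xr1 at 21d and 50d (-0.53 ± 0.19 and -0.88 ± 0.20) and Ncor1 at 50d (-0.50 ± 0.17).
Against the same shares of all genes, DNA methylation genes had 18.8, 25.0 and 25.0% and PRC1 subunits 5.88, 29.4 and 17.6%. PRC2 accessory subunits had 0, 28.6 and 14.3% and CoREST partners 25.0, 37.5 and 25.0%. Uhrf2 fell at 7d, 21d and 50d (-0.86 ± 0.12, -0.85 ± 0.12 and -0.81 ± 0.13) and Mbd2 rose (0.43 ± 0.12, 0.52 ± 0.12 and 0.58 ± 0.12). Dnmt3a fell at 7d (-0.67 ± 0.22), Smchd1 at 21d (-0.94 ± 0.21), and Dnmt3b rose at 50d (2.19 ± 0.38). Of the PRC1 subunits Pcgf3 fell at 7d, 21d and 50d (-1.15 ± 0.25, -0.95 ± 0.25 and -0.99 ± 0.27), Rybp at 21d and 50d (-0.58 ± 0.17 and -0.77 ± 0.19) and Cbx6 at 21d and 50d (-1.42 ± 0.42 and -1.50 ± 0.46), and Ring1 rose at 21d (0.88 ± 0.21). The PRC2 accessory subunit Aebp2 fell at 21d and 50d (-0.47 ± 0.15 and -0.72 ± 0.16) and Rbbp4 rose at 21d (0.61 ± 0.22). Hdac1, a CoREST partner, rose at 7d, 21d and 50d (0.55 ± 0.14, 0.52 ± 0.14 and 0.62 ± 0.15). Rcor1 fell at 7d and 21d (-2.98 ± 0.71 and -1.86 ± 0.66), Hdac2 at 21d (-0.57 ± 0.19) and Gse1 at 50d (-0.87 ± 0.27).

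Between the later days themselves, which all hold Y-linked transcripts, no member passed with edgeR. For 50d over 7d the count was 0 of 44, against 0.441% of all genes, and 0 by DESeq2. At an unadjusted p under 0.05 there were 5 of 44 members, against 1334 of all 13617 genes. The largest difference among those 5 members was that of Kdm3a, with 12.4, 17.2 and 16.1 CPM at 50d, against 11.9, 9.18, 9.50 and 9.64 CPM at 7d (0.60 ± 0.21, adjusted p = 0.311). For 50d over 21d the count was 0 of 44, against 0.441%, with 0 by DESeq2 and 3 by limma voom. Here 4 of 44 members had an unadjusted p under 0.05, against 1646 of all 13617 genes. Zmynd8 did not pass in either. Over all 5 young groups at once, the F-test called 11 members, or 25.0%, against 41.0% of all genes: Setd7, Zmynd8, Kdm6b, Ezh1, Kdm1a, Smyd2, Ehmt1, Cbx5, Prdm2, Setd1b and Kdm3a.

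The tumors were compared with adjacent tissue and with each other. In Hdac3-/- tumors 0 members rose and 1 fell relative to adjacent tissue, or 2.27%, against 10.3% of 13187 genes tested (5.29% higher and 4.98% lower). In recipient tumors 0 rose and 1 fell relative to adjacent tissue, or 2.27%, against 15.3% (8.19% higher and 7.08% lower). The member was Zmynd8 in both, and both comparisons share the adjacent libraries. Recipient tumors came from Fah-/- mice of 12 months and adjacent tissue from Alb-Cre:Hdac3-/- livers of 10 months. Tumor state, host genotype and age therefore cannot be told apart in the comparison of recipient tumors with adjacent tissue. Host genotype and age also differ between recipient and Hdac3-/- tumors.

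Zmynd8 had 59.5, 80.6 and 55.8 CPM in recipient tumors and 60.9, 63.6 and 65.9 CPM in Hdac3-/- tumors, against 825, 1168 and 582 CPM in adjacent tissue. The lowest adjacent library was several times above the highest tumor library. Zmynd8 was 13.5-fold lower in Hdac3-/- tumors (log2 difference -3.76 ± 0.35, 95% interval -4.54 to -2.98, adjusted p = 0.00199) and 13.2-fold lower in recipient tumors (-3.72 ± 0.35, -4.50 to -2.94, adjusted p = 0.00148). Leaving out any 1 library kept the log2 differences between -3.98 and -3.48 and between -3.94 and -3.45, with both calls held.
Hepatocyte markers summed to 45438, 58856 and 21905 CPM in recipient tumors and 27151, 102366 and 83920 CPM in Hdac3-/- tumors, against 105718, 130688 and 131053 CPM in adjacent tissue, so every tumor library had a lower sum than every adjacent one. In recipient tumors 2 of 8 hepatocyte, 2 of 7 macrophage, 2 of 7 stellate and matrix, and 1 of 6 endothelial markers fell. In Hdac3-/- tumors 2 of 8 hepatocyte, 1 of 7 macrophage and 1 of 3 neutrophil markers fell, and 1 of 7 stellate and matrix markers rose. Over all genes tested 7.08% fell and 8.19% rose in recipient tumors, and 4.98% fell and 5.29% rose in Hdac3-/- tumors. The part of these cell types in the Zmynd8 difference was not tested. Tumor replicate 3 and adjacent replicate 2 held Y-linked transcripts. Among the libraries without them Zmynd8 was at 60.9 and 63.6 CPM in Hdac3-/- tumors, against 825 and 582 CPM in adjacent tissue. With the presence of Y-linked transcripts as a covariate the log2 differences from adjacent tissue were -3.72 in Hdac3-/- tumors and -3.56 in recipient tumors. Between recipient and Hdac3-/- tumors Zmynd8 differed by 0.04 ± 0.31 (-0.66 to 0.74, adjusted p = 0.977).

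**Figure D4:**
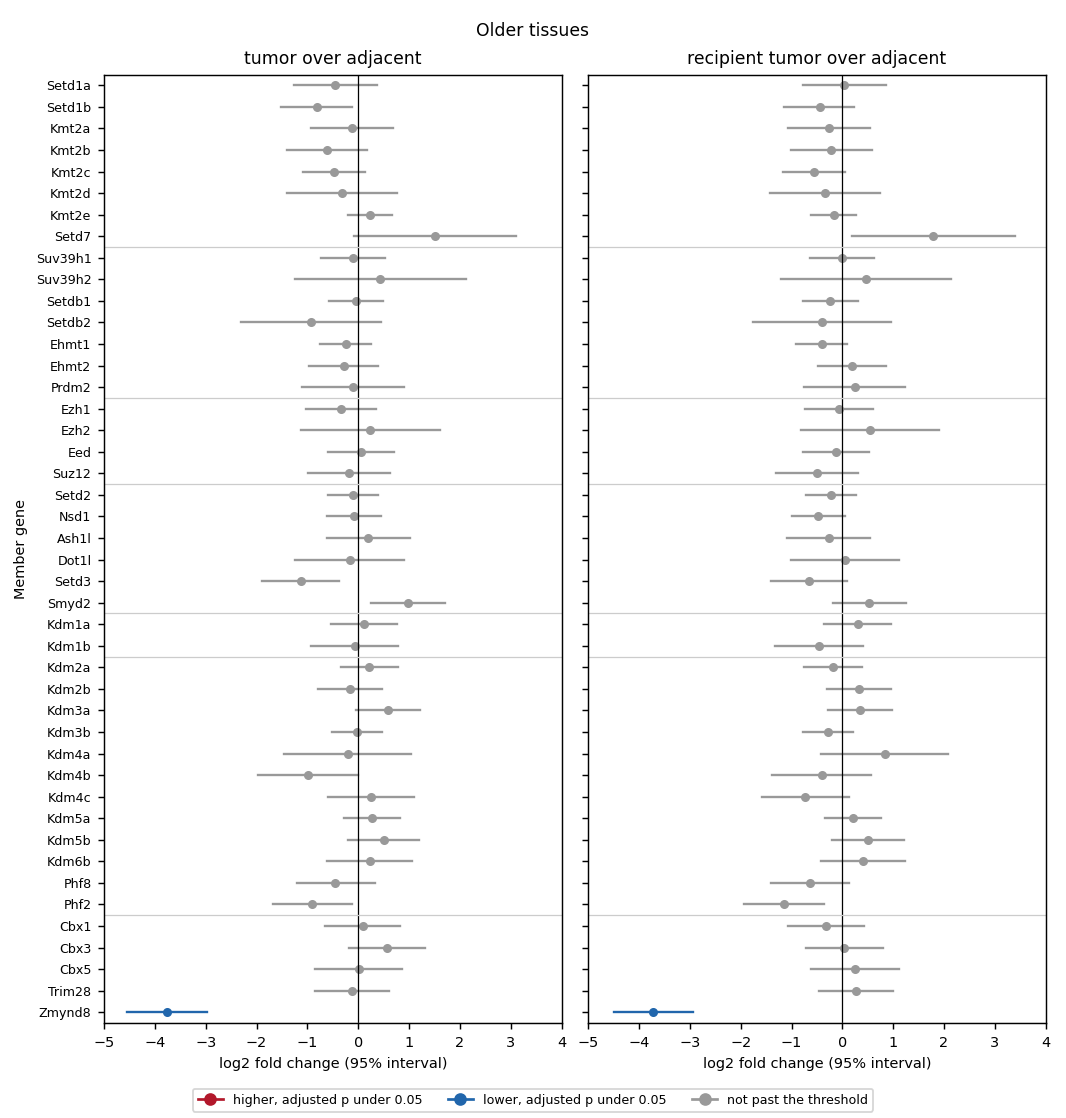
Log2 fold changes with 95% intervals (horizontal axis) of the 44 members (vertical axis, by role) for Hdac3-/- tumor over adjacent tissue and recipient tumor over adjacent tissue, coloured by direction where the edgeR adjusted p was under 0.05. Zmynd8, at -3.76 and -3.72, is the member past the threshold, and the intervals of most others cross 0.

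A few members stood apart without passing. Setd3 had 64.4, 41.9 and 36 CPM in Hdac3-/- tumors, against 94.3, 109.8 and 106 CPM in adjacent tissue, with no overlap (-1.13 ± 0.34, adjusted p = 0.0645). Smyd2 had 29.9, 52.1 and 47.3 CPM in Hdac3-/- tumors, against 23.1, 26.2 and 16.0 CPM in adjacent tissue, also without overlap (0.98 ± 0.32, adjusted p = 0.0843). Phf2, an H3K9 demethylase that acts with hepatic transcription factors, had 19.9, 16.6 and 12.8 CPM in recipient tumors and 10.3, 22.5 and 25.6 CPM in Hdac3-/- tumors, against 33.0, 45.6 and 30.2 CPM in adjacent tissue (-1.15 ± 0.35, adjusted p = 0.0541, and -0.90 ± 0.35, adjusted p = 0.128). For Phf2 both kinds of tumor lay below all adjacent libraries. Recipient tumors overlapped adjacent tissue for Setd3, with 97.6, 51.5 and 48.5 CPM (-0.66 ± 0.34, adjusted p = 0.207), and for Smyd2, with 43.5, 26.6 and 24.7 CPM (0.53 ± 0.32, adjusted p = 0.288).
Setd1b, an H3K4 methyltransferase, had 28.6, 25.8 and 39.0 CPM in Hdac3-/- tumors, against 52.0, 57.6 and 54.9 CPM in adjacent tissue (-0.82 ± 0.31, adjusted p = 0.117). Setd7 had 13.9, 6.54 and 14.8 CPM in recipient tumors and 21.6, 2.60 and 4.91 CPM in Hdac3-/- tumors, against 4.36, 2.37 and 3.41 CPM in adjacent tissue (1.78 ± 0.72, adjusted p = 0.12, and 1.51 ± 0.71, adjusted p = 0.204). One of the Hdac3-/- tumors, replicate 1, carried the high value, and it was also the one with the lowest hepatocyte marker sum. The part of hepatocyte content in the Setd7 level was not tested. Kdm4a had 106 CPM in recipient tumor replicate 1 and 29.6 and 17.3 CPM in the others.

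The other members whose levels are given throughout did not pass in older tissue. Kdm6b had 62.6, 59.8 and 28.8 CPM in recipient tumors and 32.7, 39.3 and 61.4 CPM in Hdac3-/- tumors, against 34.9, 50.8 and 27.8 CPM in adjacent tissue. Kdm1a had 18.3, 17.5 and 11.2 CPM in recipient tumors and 12.7, 17 and 11.6 CPM in Hdac3-/- tumors, against 10.6, 16.0 and 11.4 CPM in adjacent tissue. Ezh2 had 1.15, 3.60 and 5.24 CPM in recipient tumors and 4.43, 2.08 and 1.57 CPM in Hdac3-/- tumors, against 1.49, 2.73 and 2.67 CPM in adjacent tissue. All of these overlap.
Suv39h1 had 7.84, 8.44 and 11.2 CPM in recipient tumors and 10.9, 7.06 and 7.73 CPM in Hdac3-/- tumors, against 9.61, 9.83 and 8.11 CPM in adjacent tissue. Setdb1 had 20.4, 25.9 and 19.2 CPM in recipient tumors and 20.2, 24.8 and 29.8 CPM in Hdac3-/- tumors, against 22.3, 24.2 and 30.4 CPM in adjacent tissue. Both H3K9 enzymes overlap between the tissues.
The HP1 genes in both kinds of tumor overlapped adjacent tissue too. Cbx5 had 10.9, 34.7 and 18 CPM in recipient tumors and 15.4, 19.9 and 18.4 CPM in Hdac3-/- tumors, against 15.6, 14.9 and 22.6 CPM in adjacent tissue. Cbx1 had 6.59, 6.92 and 7.66 CPM in recipient tumors and 7.90, 11.8 and 8.25 CPM in Hdac3-/- tumors, against 6.04, 7.46 and 12.8 CPM in adjacent tissue. Its recipient tumors all lay below its Hdac3-/- tumors, without passing (-0.40 ± 0.33, edgeR adjusted p = 0.736). Cbx3 had 10.9, 19.1 and 24.9 CPM in recipient tumors and 25.6, 31.7 and 21.5 CPM in Hdac3-/- tumors, against 16.6, 13.7 and 22.6 CPM in adjacent tissue.

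Between recipient and Hdac3-/- tumors edgeR called 0 members, against 0% of all genes, with 1 member at an unadjusted p under 0.05 and 0 by DESeq2. That member was Kdm4c, an H3K9 and H3K36 demethylase, with 2.09, 2.18 and 3.16 CPM in recipient tumors, against 3.56, 4.78 and 6.37 CPM in Hdac3-/- tumors (-0.98 ± 0.38, adjusted p = 0.671). Over the 3 older groups at once the F-test called 1 member, Zmynd8, or 2.27%, against 11.8% of all genes. Of 15 cell cycle genes tested, 11 rose in recipient tumors (73.3%, against 15.3% of all genes called) and 4 in Hdac3-/- tumors (26.7%, against 10.3%) relative to adjacent tissue. Mki67 had 6.48 ± 5.70 CPM in recipient tumors and 4.01 ± 2.56 CPM in Hdac3-/- tumors, against 0.978 ± 0.735 CPM in adjacent tissue, and did not pass (adjusted p = 0.0819 and 0.197).

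Of 20 other histone lysine methylation enzymes tested, 2 rose and 1 fell in recipient tumors (15.0%, against 15.3% of all genes) and 3 rose and 1 fell in Hdac3-/- tumors (20%, against 10.3%). Kmt5a had 88.4 ± 29.4 CPM in recipient tumors and 70.9 ± 19.1 CPM in Hdac3-/- tumors, against 26.4 ± 9.74 CPM in adjacent tissue (1.74 ± 0.38, adjusted p = 0.0171, and 1.43 ± 0.38, adjusted p = 0.0414). Mecom, also called Evi1, rose in Hdac3-/- tumors (3.84 ± 0.614 CPM, against 0.208 ± 0.214 CPM in adjacent tissue), and Kmt5c, an H4K20 methyltransferase, fell there (-1.18 ± 0.26). Smyd5 rose in recipient tumors (60.9 ± 15.7 CPM, against 19.7 ± 2.44 CPM in adjacent tissue) and in Hdac3-/- tumors (0.97 ± 0.26). Smyd1 fell in recipient tumors, with 0.523, 0 and 0.915 CPM, against 7.53, 5.33 and 5.76 CPM in adjacent tissue.
Dnmt1, the maintenance DNA methyltransferase, had 36.6 ± 7.88 CPM in recipient tumors and 30.2 ± 0.464 CPM in Hdac3-/- tumors, against 12.2 ± 1.60 CPM in adjacent tissue (1.58 ± 0.23 and 1.31 ± 0.23, adjusted p = 0.00418 and 0.0102). Its partner Uhrf1 rose in recipient tumors (3.97 ± 0.98). In recipient and Hdac3-/- tumors 18.8 and 12.5% of DNA methylation genes were called, against 15.3 and 10.3% of all genes. The shares were 28.6 and 14.3% for PRC2 accessory subunits and 5.88% in both for PRC1. For the HDAC3 complex they were 16.7% in both, and for COMPASS partners 0 and 8.33%. Phf19, a PRC2 accessory subunit that reads H3K36 methylation, fell in recipient and Hdac3-/- tumors (-2.16 ± 0.53 and -2.56 ± 0.55), as did Ring1 of PRC1 (-0.93 ± 0.27 and -1.22 ± 0.27), while Rbbp7 rose in recipient tumors (0.97 ± 0.29). Tbl1xr1 rose in both (0.88 ± 0.20 and 0.94 ± 0.20), and Men1, a COMPASS partner, fell in Hdac3-/- tumors (-1.05 ± 0.28).
Of the 14 enzymes around 2-oxoglutarate Sdhb fell in Hdac3-/- tumors (-1.19 ± 0.28), and Sdha and Idh1 fell in recipient tumors (-1.19 ± 0.31 and -1.57 ± 0.45). The share called in that list was 7.14% in Hdac3-/- tumors, against 10.3% of all genes, and 21.4% in recipient tumors, against 15.3%.

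Another deposited value, the length given for Zmynd8, differed between the groups with low and high Zmynd8. The deposited tables give a length for each gene in each library, which was the same in every library for all 14701 genes with 1 listed transcript and differed between libraries for 4352 of 4937 genes with several. The sources used here do not say how it was calculated, so it may not be independent of the counts. Zmynd8 lists 6 transcripts, and its length varied more than that of any other member, by 25.2% from lowest to highest. It was 3417, 3352 and 3261 bases in 0d livers, 2753, 2735, 2814 and 2805 at 7d, 2753, 2764, 2826 and 2758 at 21d, 2798, 2824 and 2789 at 50d, and 2749, 2792 and 2753 in WT livers. All 0d values exceed all others of the young livers.
In older tissue it was 3277, 3241 and 3142 bases in recipient tumors and 3004, 3260 and 3222 bases in Hdac3-/- tumors, against 2739, 2730 and 2745 bases in adjacent tissue. Both kinds of tumor lay above all adjacent libraries. The 2-sided exact permutation test gave p = 0.1, the smallest possible with 3 against 3, for 0d against WT and for each kind of tumor against adjacent tissue, and 0.0571, the smallest possible with 4 against 3, for 7d and 21d against 0d. The groups with a low Zmynd8 level are those with a greater length.

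The Zmynd8 transcripts that could be matched to GENCODE on GRCm38 differ in length. The shortest has 2484 bases in 11 exons, at chr2:165827129-165875777, and ends 42977 bases short of the annotated end of the gene, while the others have 5072 to 6188 bases in 22 to 24 exons. All deposited Zmynd8 lengths, 2730 to 3417 bases, lie closer to the shortest transcript than to any other matched one. The groups with more Zmynd8, at 2730 to 2826 bases, lie closest to it. Which transcripts carried the reads was not tested, since the tables give 1 count per gene. The FPKM values divide by this length, so the FPKM difference between 0d and WT, like that between tumor and adjacent tissue, holds the length difference as well, whereas CPM does not.

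**Figure D5:**
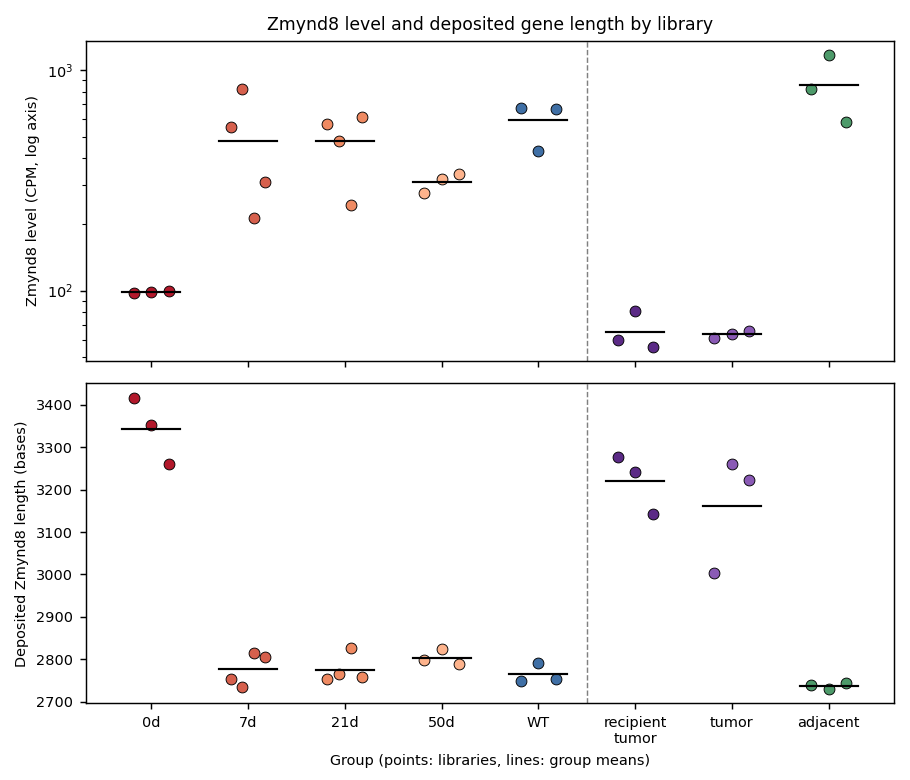
Zmynd8 level in CPM (log scale) and the deposited Zmynd8 length in bases for each library by group, with points for libraries and lines for group means. The 0d livers (97.2 to 99.3 CPM) and both kinds of tumor (55.8 to 80.6 CPM) have lengths of 3004 to 3417 bases, and the other groups have lengths of 2730 to 2826 bases.

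Of the other 15 members with several listed transcripts, Kdm2b varied by 23.3% in length (3600 to 4441 bases) and Prdm2 by 7.7% (7517 to 8100 bases). The 28 members with 1 listed transcript have the same length everywhere.

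Within groups, some members were high in the same library. Setdb1 was highest in the same library as Kmt2d, a large H3K4 methyltransferase of enhancers, in 8 of 8 groups, and Setd1a, Nsd1 and Dot1l in 7 of 8. The largest set, 10 members, shared that library in 4 groups, while Suv39h1, Ezh2, Smyd2 and Kdm1a did in 1 and Eed in 0. Such counts were not made over all genes. Replicate 2 of 50d was the highest of its group for 28 members, 0d replicate 1 for 28, WT replicate 2 for 24 and tumor replicate 3 for 24. Kmt2d itself had 45.3, 94.4 and 55.9 CPM at 50d and 36.8, 68.7 and 122 CPM in Hdac3-/- tumors. The mean coefficient of variation within groups ran from 7.71% for Kmt2e and 7.92% for Setd2 to 48.5% for Dot1l and 48.2% for Suv39h2.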

How the data were processed

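RNA of 26 mouse liver samples was sequenced after Trizol extraction with an Illumina TruSeq kit, per the labels' protocols. HISAT, Bowtie2 and the build mm10 are named in the submitters' processing notes; the counter and its settings are not given there. Per the file headers, the deposited tables hold an expected count, an FPKM value and a length for each gene of each sample, and 20.1 to 21.8% of the listed counts were not whole. Genes not listed in a library were taken as 0. FPKM values were used as deposited by the authors.

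Counts were rounded and tested with edgeR 4.0.16 in R 4.3.3 (filterByExpr with a minimum count of 10, TMM, quasi-likelihood F-test, Benjamini-Hochberg adjustment). The 5 young groups were fitted together (13617 genes) and the 3 older groups together (13187 genes), so groups in a fit share the estimate of spread. Printed CPM use TMM factors over all 26 libraries, and fold changes come from the fit of the age group. Gene symbols were assigned by gene ID for 19573 genes and by accession for 11, and 54 had none. Single values were compared with 2-sided exact permutation tests (scipy 1.17.1). Alternatives were DESeq2 1.42.0 and its size factors, library totals, no filter and a minimum count of 30, voom with quality weights and limma-trend (limma 3.58.1) on log2(FPKM + 1) and log2(FPKM + 0.1), a replicate block, other sets of libraries in the fit, leaving out each library, and presence of Y-linked transcripts (over 5 CPM) as a covariate. The scripts were tested on simulated counts.

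The labels do not say that samples of a group are separate animals, so p-values measure the spread between these samples. No pair of libraries agreed within sampling noise (chi-square per degree of freedom of 7.67 to 291.91). Intervals and tests carry the precision that totals of 8602526 to 11094627 counts allow. The members and the lists were chosen with earlier results of these data known. Values per library are given for up to 6 members that passed in a comparison, by adjusted p, and in every comparison for Ezh2, Suv39h1, Setdb1, Kdm1a, Kdm6b, Cbx1, Cbx3 and Cbx5; of each other list up to 3 genes are named, and always Hdac3 and Mki67. A few genes that this rule names are not reported here. Members that stood apart without passing, and members low or high in 1 library, were chosen after their values were seen.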

Additional observations from a re-analysis of the deposited data

Results flagged for a closer look

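In the groups of 4 libraries, 88 sets of values were searched for a library far from the rest of its group, and 10 were found. Chance gives about 1 in 20 for independent sets. The members were measured in the same libraries, so the sets are not independent and 10 of 88 is no test of chance. At 7d, replicate 4 was the highest library for 17 members, against 15, 8 and 4 members for replicates 1, 2 and 3. That was not counted over all genes. Replicate 4 stood far from the rest for 4 members: Kmt2d had 90.5 CPM there, against 47.4 to 52.0 CPM in the other 7d libraries, and Setd7 had 16.3 CPM, against 10.1 to 10.4 CPM. Dot1l had 22.3 CPM in that library, against 7.22 to 9.37 CPM, and Cbx3 had 38.9 CPM, against 27.9 to 29.8 CPM. It is also the 7d library with 48.1% of its adult beta-globin count from Hbb-bs and Hbb-bt, and whether that bears on these values was not tested. Ash1l had 19.4 CPM in 7d replicate 3, against 23.0 to 23.4 CPM, and Kdm3a had 11.9 CPM in 7d replicate 1, against 9.18 to 9.64 CPM.

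At 21d, replicate 2 had 55.8 CPM of Kmt2e, against 47.4 to 48.4 CPM in the other 21d libraries, and 6.49 CPM of Kdm4c, against 4.74 to 5.01 CPM. Kdm6b had 31.6 CPM in 21d replicate 1, against 42.4 to 44.1 CPM. Suv39h2 had 0.119 CPM in 21d replicate 4, against 0.730 to 0.799 CPM, levels at which few reads decide the value.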

How the results depend on the processing

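Among single members that passed, 670 alternative values were computed: 545 kept direction and call, 125 kept direction and lost the call, and 0 changed sign. Counts of members called moved more. The share of all genes called under each alternative, or with a library left out, is not given. The changes in count below are thus no result about the members. For 0d over WT, 8 became 15 with voom and 4 with all libraries in 1 fit. For 7d over 0d, 15 became 7 with all libraries in 1 fit. For 21d over 0d, 7 became 13 with library totals, 12 with voom, 13 and 11 on log2(FPKM + 1) and log2(FPKM + 0.1), and 3 with all libraries in 1 fit. For 50d over 0d, 6 became 11 with library totals, 23 with voom, 11 on both FPKM scales, and 12 with the compared groups alone. For 50d over 21d, 0 became 3 with voom. For Hdac3-/- tumors over adjacent tissue, 1 became 2 with DESeq2, with library totals and on both FPKM scales, 4 with voom and with the compared groups alone, and 7 with all libraries. For recipient tumors over adjacent tissue, 1 became 2 with DESeq2 and the stricter filter, 3 with the compared groups alone and 7 with all libraries. Across the young groups 11 became 18 with voom, and across the older groups 1 became 3 with voom and stayed 1 with the Y-linked covariate, which was chosen after seeing the data. The cause was not tested.

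Leaving out 1 library gave 6 to 10 calls for 0d over WT, 4 to 16 for 7d, 3 to 7 for 21d and 5 to 14 for 50d over 0d (14 without 50d replicate 2), 6 to 16 across the young groups and 1 to 2 across the older groups (2 without recipient tumor replicate 1). Equal replicate numbers did not pair the samples (correlations of deviations of -0.21 to 0.25, with 0 comparisons in which every pair exceeded 0.1). With the replicate block 10 members passed for 50d over 0d and 17 across the young groups. Scaling by library totals moved the median log2 difference of all genes to 0.30 for 0d over WT, -0.13, -0.21 and -0.17 for 7d, 21d and 50d over 0d, and 0.20 and 0.26 for Hdac3-/- and recipient tumors over adjacent tissue. For 0d over WT it gave 9 members higher and 2 lower. Members under 1 CPM, such as Suv39h2, are limited by depth.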
